A study of Rattus norvegicus with 30 samples.

Results

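Gene expression was followed in explants of rat prepubertal testis between 6 and 16 days of organotypic culture. The comparison covers the 3 libraries of tissue cultured for 6 days (D6) and the 3 of tissue cultured for 16 days (D16), chosen by their sample labels, 6 of 30 libraries in the series. All 6 came from Wistar Han rats whose testes were dissected at 8.5 days post-partum (dpp). Each testis was cut into 6 fragments and kept on agarose at the interphase of gas and liquid, in αMEM with Knock-out serum replacement, retinol and vitamin E. Each cultured library pooled 12 explants taken from at least 3 males, and the necrotic centre of the explants was removed before freezing. D6 and D16 explants therefore differ in their days of culture and not in their age at dissection. The other libraries of the series are uncultured testes of 6 ages from 8.5 to 53.5 dpp and explants cultured for 22 or 28 days (D22 and D28), with no other treatment named. Of these, the uncultured testes of 8.5, 14.5 and 24.5 dpp and the D22 and D28 explants are used below. The titles give D6 and D16 the ages of 14.5 and 24.5 days, the sum of the age at dissection and the days of culture. The study's methods left D6 out of its own comparison of cultured with uncultured tissue on the ground of its different make-up of cells.

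In the prepubertal testis, Sertoli cells nurse the germ cells inside the seminiferous tubule. As they mature they stop dividing, lower anti-Müllerian hormone and build tight junctions with one another, which become the blood-testis barrier. Germ cells pass from spermatogonia to meiosis over the same weeks, while Leydig cells in the interstitium make androgens from cholesterol. Cells that lack sterols activate the genes of cholesterol synthesis through SREBP factors, cells short of amino acids or with stressed endoplasmic reticulum (ER) activate genes through ATF4, and inflammatory signals act largely through NF-κB.

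The deposited table held 17322 genes, each with a value in every library in FPKM, which are fragments counted relative to transcript length and library size. Genes with values above 0 numbered 12704 to 13108 per library. Relative depth, read from the most frequent ratio of low values between libraries, ran from 0.986 to 1.60 times that of D6 replicate 1, with D16 replicate 2 the deepest. Over the genes tested, Pearson correlations of log2(FPKM + 1) between libraries of the same day ran from 0.970 to 0.983, and between days from 0.954 to 0.970. Between libraries of the same day, 110 to 172 genes were apart by 1 log2 unit or more, and between days 259 to 544 were. D6 replicate 3 lay farthest from D16, with 431 to 544 such genes and correlations of 0.954 to 0.957. The other pairs between days had 259 to 341 such genes and correlations of 0.965 to 0.970. Erythroid genes summed to 1.71 to 6.05 FPKM at D6 and 1.69 to 2.28 FPKM at D16, against 903 to 1443 FPKM in the uncultured 8.5 dpp testes. These are whole-tissue values, so fewer cells of a type and less RNA per cell cannot be told apart. The study's methods describe separate RNA isolations for the 3 libraries of a day, at least 9 males in all, and the sources used here do not say whether their cultures ran apart, so p-values measure the spread between these libraries.

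Of 11145 genes tested with limma on log2(FPKM + 1), 368 (3.3%) were called, which needed an adjusted p of 0.05 or less and group medians that differed 2-fold or more. Of these, 162 (1.45%) were higher and 206 (1.85%) were lower at D16. Their median log2 change was 0.88 for those called higher and -0.92 for those called lower. Adjusted p alone passed for 1927 genes (17.3%), with 895 (8.03%) higher and 1032 (9.26%) lower at D16. The median log2 change of all genes tested was -0.018. Below, a gene "rose" or "fell" if it was called. Counts on adjusted p alone drop the 2-fold rule and so include the called genes, and a gene that passed without reaching it is said to have passed on adjusted p alone.

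**Figure D1:**
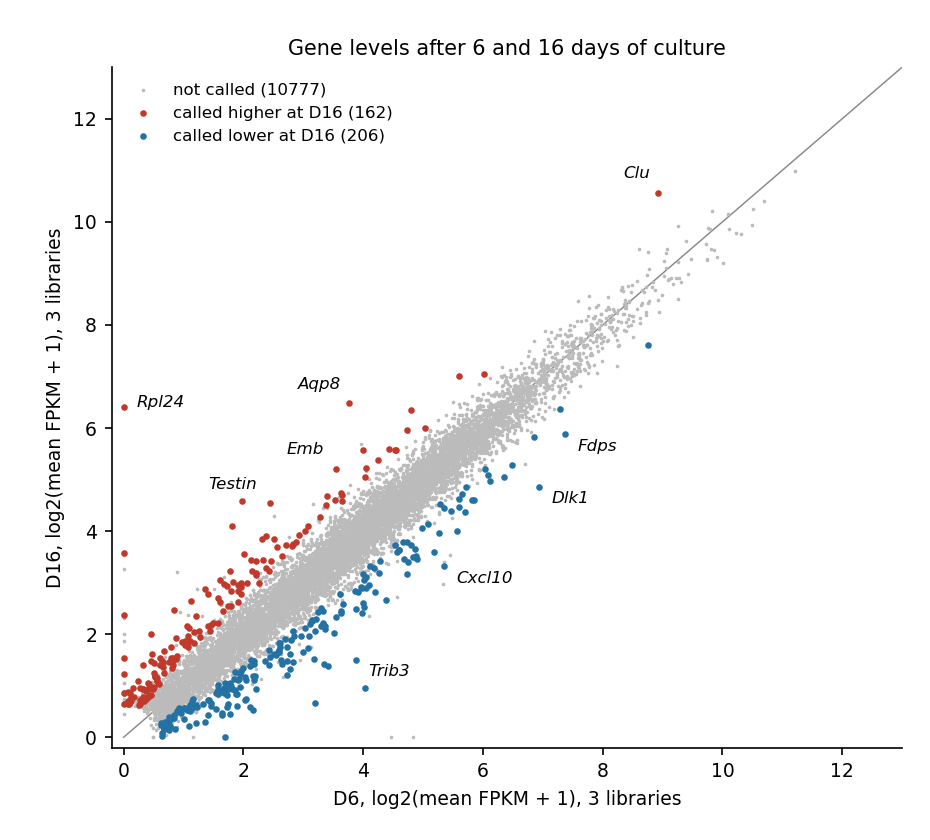
Mean level of each tested gene at D6 (horizontal axis) and D16 (vertical axis), as log2(mean FPKM + 1) of 3 libraries per day. Red points are the 162 genes called higher at D16, blue points the 206 called lower and grey points the other 10777, and most genes lie close to the diagonal of equal levels.

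Of the gene lists, those with the largest shares of members that fell were cholesterol and fatty acid synthesis (13 of 47 tested), the amino acid and ER stress response (12 of 46), matrix proteases and their inhibitors (6 of 30) and cytokines and NF-κB targets (11 of 56). In complement 3 of 17 tested members rose and in mature Sertoli cell genes 5 of 45. Over all genes tested, 1.85% fell and 1.45% rose. The mitosis list had the second lowest median change, -0.44, with 4 of 66 members called. No member was called in the lists of pachytene and spermatid markers, differentiating spermatogonia, general germ cell genes, macrophages, circadian clock genes, erythroid genes, and mesothelial, rete testis and neural markers. In limma's test at an unadjusted p under 0.05, these lists held 4 of 11, 6 of 11, 4 of 16, 13 of 39, 8 of 16, 0 of 1 and 3 of 6 members, in that order. Over all genes tested, 3964 of 11145 had such a p, so these counts alone do not set the lists apart. On adjusted p alone they held 0, 2, 2, 2, 5, 0 and 1, against 17.3% of all genes tested.

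**Figure D2:**
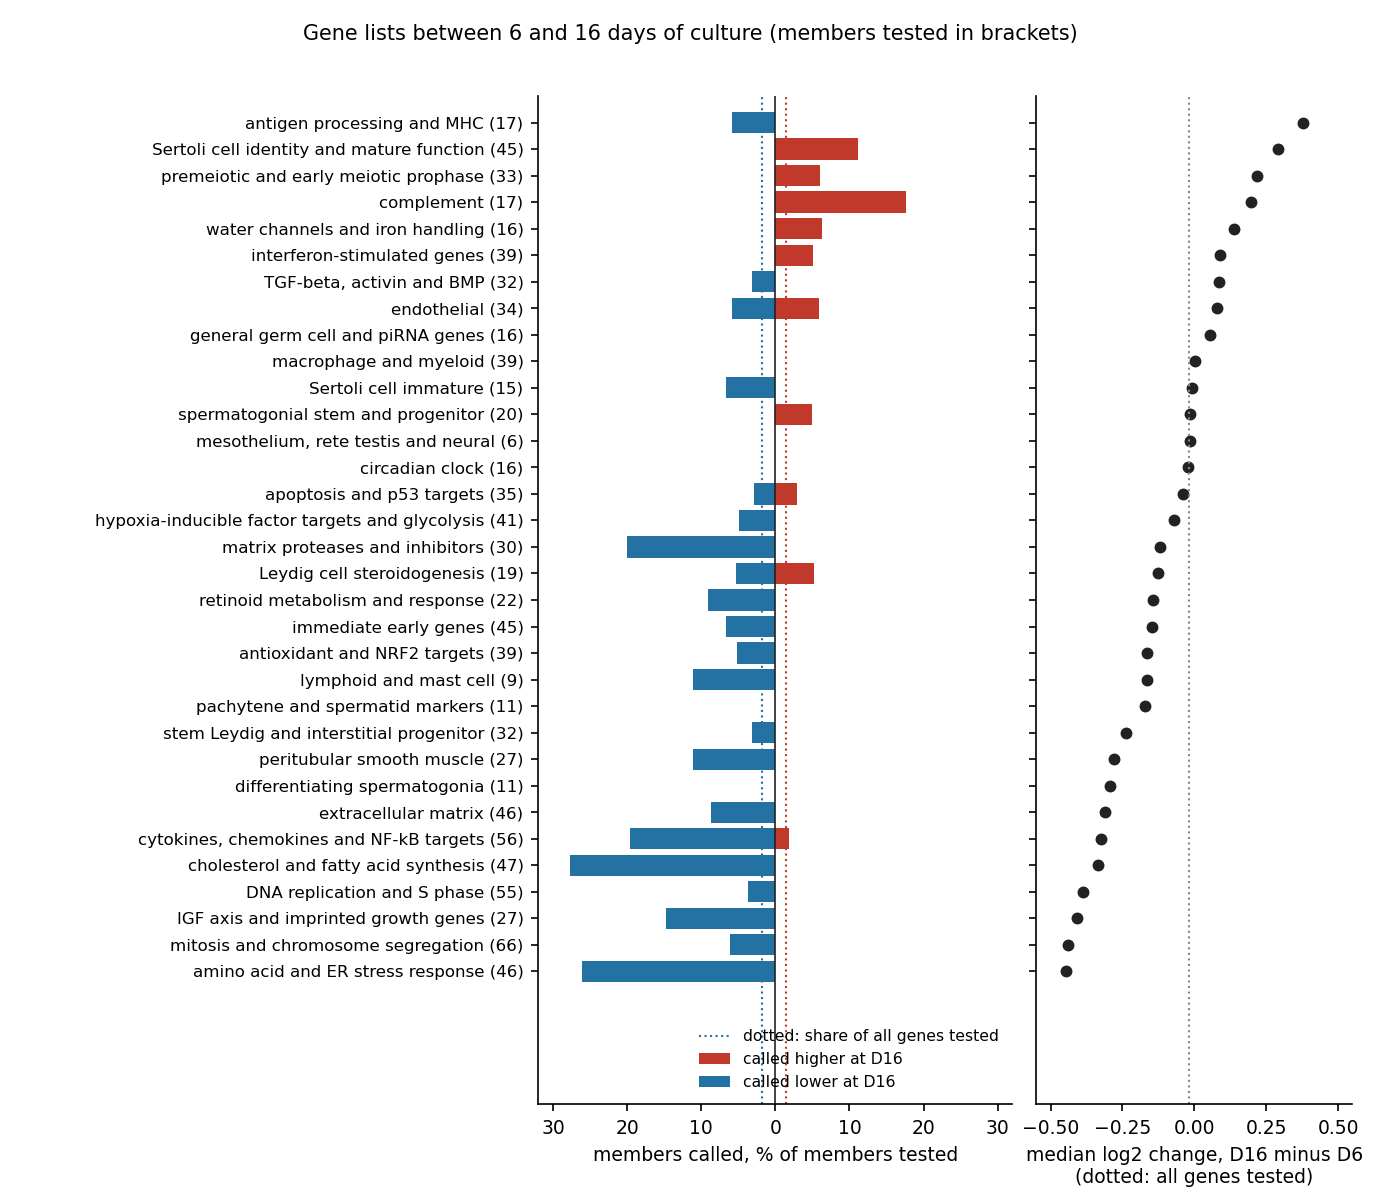
Gene lists with at least 5 tested members, ordered by their median log2 change from D6 to D16. Bars give the percent of tested members called lower (blue, to the left) or higher (red, to the right) at D16, points give the median log2 change, and dotted lines give the same values over all genes tested.

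Some of the genes that mark mature Sertoli cells rose in culture, and Amh, which marks immature ones, fell. Of 45 tested members, 5 rose (Aqp8, Testin, Clu, Cst12 and Corin) and none fell, against 1.45% of all genes called higher. On adjusted p alone 19 were higher and 2 lower, against 8.03% and 9.26% of all genes. The median log2 change of the list was 0.29. In the immature Sertoli list 1 of 15 tested members, Amh, fell, none rose, and the median was -0.0078, a value that turned positive under quantile normalization and under equal medians.

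Clu encodes clusterin, a secreted chaperone and a major product of Sertoli cells. It stood at 554, 436 and 468 FPKM at D6 and 1340, 1559 and 1637 FPKM at D16 (log2 change 1.64, SE 0.12, adjusted p = 0.00142). Aqp8, a water channel, stood at 12.96, 10.9 and 13.9 FPKM at D6 and 66.8, 92.1 and 106 FPKM at D16 (log2 change 2.70, SE 0.18, adjusted p = 0.000913). For both genes every D16 library lay above every D6 library. Testin, a secreted protein found at Sertoli cell junctions, went from 4.74, 4.76 and 3.74 FPKM to 22.4, 20.5 and 24.1 FPKM (log2 change 2.11, SE 0.11). The cystatin Cst12 went from 45.1, 54.7 and 42.4 FPKM to 132, 124 and 128 FPKM (log2 change 1.43, SE 0.11). Corin, a membrane protease, was much weaker, at 0.599, 0.771 and 0.715 FPKM at D6 and 1.32, 1.95 and 1.94 FPKM at D16, and kept its call in 4 of 6 fits that each left out 1 library (adjusted p up to 0.0573, without D16 replicate 2).

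The direction of these genes along the whole culture can be read from the other libraries, without a test because D6 and D16 are shared. Clu stood at 152, 185 and 166 FPKM in the uncultured 8.5 dpp testes and at 2989, 2618 and 3391 FPKM at D28. Aqp8 stood at 0.128, 0.0952 and 0.409 FPKM at 8.5 dpp and 202, 203 and 259.7 FPKM at D28. For both, the D6 and D16 values lay between those of the start and the end of the culture. Amh, the hormone of immature Sertoli cells, stood at 126, 85.7 and 73.8 FPKM at 8.5 dpp, 77.6, 76.1 and 87.5 FPKM at D6 and 28.1, 34.1 and 33.6 FPKM at D16 (log2 change -1.31, SE 0.11, adjusted p = 0.00163). At D28 it stood at 42.2, 28.5 and 43.8 FPKM, so its level at D16 was near that at the end of culture.

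**Figure D3:**
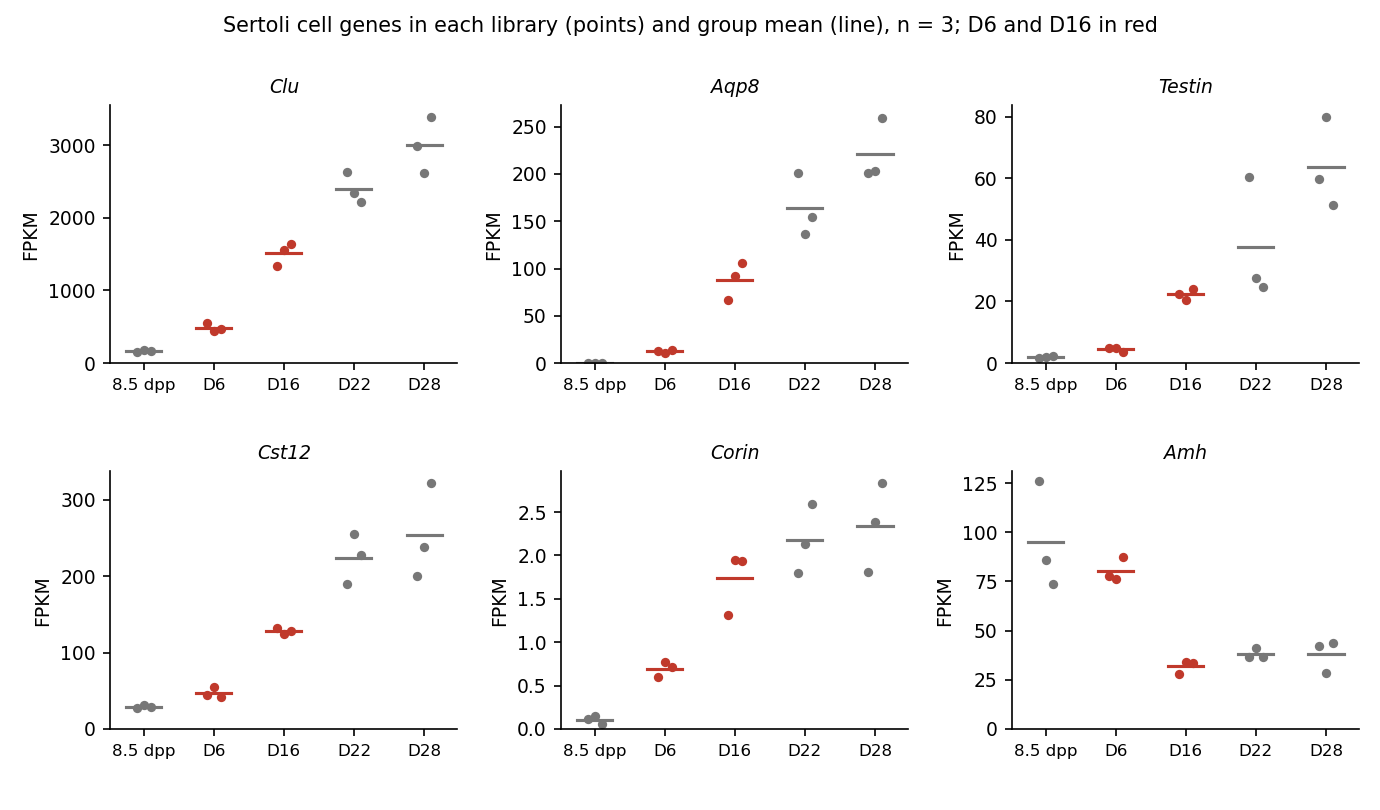
FPKM of 6 Sertoli cell genes in each library (points) of the 8.5 dpp testes and of tissue cultured for 6, 16, 22 and 28 days, with the group mean as a line (n = 3), D6 and D16 in red. Clu, Aqp8, Testin, Cst12 and Corin are higher in every D16 than in every D6 library, and Amh is lower.

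Genes of the junctions between Sertoli cells passed on adjusted p alone. Cldn11, the main claudin of the barrier, stood at 239, 157 and 180.5 FPKM at D6 and 329.6, 377 and 349.8 FPKM at D16 (log2 change 0.89, SE 0.16). Occludin (Ocln) went from 24.2 ± 3.23 to 38.0 ± 2.86 FPKM and the scaffold Tjp1 from 34.1 ± 5.49 to 48.3 ± 2.94 FPKM (SD, n = 3). Jam2, F11r, N-cadherin (Cdh2) and espin (Espn), which bundles actin at these junctions, also passed, with log2 changes from 0.42 to 0.72. Gja1, the gap junction protein connexin 43, stood at 113, 111 and 87.1 FPKM at D6 and 105, 106 and 113 FPKM at D16, and its groups overlapped. The study tested the barrier itself with a biotin tracer, which an intact barrier stops. In cultured tissue the tracer crossed the epithelium of every tubule observed, and the paper reports that establishment of the barrier was impaired. Tracer also passed in the younger uncultured testes of that assay. The higher RNA levels of junction genes therefore do not show that a barrier formed in culture.

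Kitlg and Gdnf, signals from Sertoli to germ cells that were picked after their values were seen, also passed on adjusted p alone. Kitlg, the ligand of Kit on differentiating spermatogonia, stood at 91.3, 90.8 and 55.1 FPKM at D6 and 143, 141 and 149 FPKM at D16 (log2 change 0.90, SE 0.19). Gdnf, which maintains spermatogonial stem cells, went from 5.19, 6.25 and 4.80 to 8.10, 10.1 and 10.6 FPKM (log2 change 0.72, SE 0.13). Rhox5, a known androgen target of Sertoli cells, gave overlapping groups of 0.552, 0.891 and 0 and 0.494, 0.608 and 1.12 FPKM. Sox9, a transcription factor of all Sertoli cells, stood at 52.9, 52.6 and 47.2 FPKM at D6 and 45.6, 48.7 and 45.6 FPKM at D16 and did not pass. The 17 immature Sertoli genes summed to 839 to 895 FPKM at D6 and 771 to 837 FPKM at D16, and the 18 general germ cell genes to 301 to 358 and 282 to 314 FPKM. The part of cell proportions in the Sertoli result was not tested.

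Genes of cholesterol synthesis fell at steps from the start to the end of the pathway. Of 47 tested members of the cholesterol and fatty acid list, 13 fell and none rose, against 1.85% of all genes called lower. On adjusted p alone 21 were lower and 5 higher, against 9.26% and 8.03% of all genes. The list median was -0.34. The members that fell run from an early step (Hmgcs1) through isoprenoid synthesis (Mvd, Idi1 and Fdps) to squalene and sterol conversion (Sqle, Cyp51, Tm7sf2, Msmo1 and Hsd17b7), with the SREBP retention protein Insig1 and the fatty acid desaturase Scd.

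Mvd, which makes isopentenyl diphosphate, stood at 19.99, 18.1 and 21.6 FPKM at D6 and 4.903, 5.27 and 5.96 FPKM at D16 (log2 change -1.71, SE 0.10, adjusted p = 0.000678). Fdps, the synthase of farnesyl diphosphate, stood at 156, 189 and 148 FPKM at D6 and 60.2, 61.0 and 51.9 FPKM at D16 (log2 change -1.49, SE 0.12, adjusted p = 0.00157). Insig1 stood at 99.2, 93.9 and 74.2 FPKM at D6 and 42.2, 36.4 and 34.7 FPKM at D16 (log2 change -1.21, SE 0.13, adjusted p = 0.00364). For these 3 genes the groups were far apart, with the highest D16 library below the lowest D6 library. Idi1, an isomerase of isoprenoid units, stood at 55.9, 56.1 and 36.3 FPKM at D6 and 28.2, 23.97 and 24.2 FPKM at D16 (log2 change -0.91, SE 0.18, adjusted p = 0.0186). D6 replicate 3 was the lowest D6 library for Idi1, and it was also the lowest for Hmgcs1, Cyp51, Sqle, Msmo1 and Insig1.

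The uncultured 8.5 dpp testes had lower levels of Mvd and Insig1 than D6, without a test because D6 is shared. Mvd stood there at 4.47, 3.51 and 5.43 FPKM and Insig1 at 32, 31.6 and 36.3 FPKM. At D28, Mvd stood at 6.82, 5.72 and 6.90 FPKM and Insig1 at 28.8, 49.0 and 40.5 FPKM. For these 2 genes the D16 levels were near those before culture and at its end. The 50 genes of the whole list summed to 1283 to 1392 FPKM at 8.5 dpp, 2268 to 2419 FPKM at D6 and 2001 to 2097 FPKM at D16, so the list as a whole stayed above its level before culture. Srebf2, the SREBP factor for sterol genes, passed on adjusted p alone, at 38.2, 40.8 and 41.4 FPKM at D6 and 26.9, 28.1 and 25.1 FPKM at D16 (log2 change -0.57, SE 0.082).

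The list also holds genes of cholesterol export, which went the other way. The exporters Abca1 and Abcg1, known targets of the liver X receptors, passed on adjusted p alone with log2 changes of 0.69 and 0.67. Abca1 went from 7.41 ± 0.694 to 12.5 ± 0.550 FPKM and Abcg1 from 27.6 ± 1.07 to 44.6 ± 2.35 FPKM (SD, n = 3). The ubiquitin ligase Mylip and lipoprotein lipase (Lpl) were higher too, with log2 changes of 0.49 and 0.68. Leaving out 1 library kept 9 to 13 members called lower, with 9 without D6 replicate 1 and 9 without D6 replicate 2. Idi1 kept its call in 2 of 6 of these fits (adjusted p up to 0.0735, without D16 replicate 2), Msmo1 in 3 of 6, and Hmgcs1 and Hsd17b7 in 4 of 6 each. The 26 Leydig cell genes, another user of cholesterol in the testis, summed to 307 to 330 FPKM at D6 and 284 to 292 FPKM at D16, and their part in this result was not tested.

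Many genes of the response to amino acid shortage and ER stress fell. Of 46 tested members, 12 fell and none rose, and on adjusted p alone 24 were lower and 1, Sesn2, was higher. Over all genes tested, 1.85% fell, and 9.26% were lower and 8.03% higher on adjusted p alone. The list median was -0.45, the lowest of all lists with at least 5 tested members. The genes that fell include amino acid transporters (Slc7a3, Slc7a5 and Slc7a11), the proline synthesis gene Pycr1, ER folding genes (Sdf2l1 and Pdia6), the transcription factors Atf5 and Cebpb, and the secreted proteins Gdf15 and Stc2. Trib3 and Chac1, which act downstream of ATF4 and CHOP, fell most.

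Trib3, a pseudokinase, stood at 12.0, 16.1 and 12.9 FPKM at D6 and 1.74, 2.01 and 1.78 FPKM at D16 (log2 change -2.36, SE 0.12, adjusted p = 0.00033). In the 8.5 dpp testes it was listed at 0.301, 0 and 0.0784 FPKM, and at D28 at 3.68, 1.85 and 2.55 FPKM. Chac1, which degrades glutathione, stood at 9.53, 8.61 and 11 FPKM at D6 and 1.49, 2 and 1.31 FPKM at D16 (log2 change -2.05, SE 0.13, adjusted p = 0.000794). Both genes had D16 levels well below every D6 library and above the 8.5 dpp testes. Slc7a3, a transporter of cationic amino acids, went from 3.26, 3.84 and 2.85 to 0.521, 0.593 and 0.390 FPKM (log2 change -1.52, SE 0.11). Slc7a5, which carries large neutral amino acids, went from 47.8, 50.4 and 43.8 to 22.7, 23.6 and 24.8 FPKM (log2 change -0.97, SE 0.087).

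The regulators Atf4 and Ddit3 passed on adjusted p alone. Atf4, the central factor of the response, stood at 298, 307 and 312 FPKM at D6 and 197, 175 and 202 FPKM at D16 (log2 change -0.68, SE 0.086). Ddit3, which encodes CHOP, stood at 44.2, 47.5 and 47.6 FPKM at D6 and 23.1, 27.1 and 30.2 FPKM at D16 (log2 change -0.78, SE 0.11). Asns, the asparagine synthetase and a textbook ATF4 target, stood at 56.9, 57.3 and 61.0 FPKM at D6 and 49.8, 49.5 and 39.9 FPKM at D16 and did not pass (adjusted p = 0.0727). Leaving out 1 library kept 9 or 10 members called lower. Slc7a5 kept its call in 3 of 6 fits, Pdia6 in 2 of 6 (adjusted p up to 0.0948, without D16 replicate 2), and Atf5, Sdf2l1 and Slc7a11 in 4 of 6 each.

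The amino acid response element, a site bound by ATF4, was searched as TGATGNAA on both strands of the 250 bases before the transcript start in RefSeq promoters of the rat build GRCr8, a different build from that of the deposited values. It was found in 7 of 40 list members with a promoter (17.5%) and in 1.89% of the promoters of 9089 tested genes. Of the 10 members that fell and have a promoter, it was found in 3, among them the 2 genes that fell most. The stretches around the match are shown, with the match in capitals, because they belong to Trib3 and Chac1, which fell most in the list, and to the third called gene with a match. This motif and the others below were chosen after the values were seen, and a match describes letters only, not a bound site. The lists were chosen by known function, so a larger share of matches in a list does not bear on its fall at D16.
Trib3 promoter, chr3:161275534-161275599, minus strand: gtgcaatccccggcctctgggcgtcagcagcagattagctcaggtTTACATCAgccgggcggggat
Chac1 promoter, chr3:126795919-126796016, plus strand: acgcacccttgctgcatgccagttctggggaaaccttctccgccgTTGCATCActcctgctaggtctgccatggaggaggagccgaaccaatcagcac
Pycr1 promoter, chr10:106420891-106420988, minus strand: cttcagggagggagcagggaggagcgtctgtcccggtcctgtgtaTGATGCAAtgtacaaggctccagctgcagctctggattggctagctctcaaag
In Trib3 and Chac1 the match reads on the strand opposite to the transcript, and in Pycr1 on the same strand. The sterol regulatory element, searched as TCACNCCAC, was found in none of 35 list promoters and in 1.06% of those of all tested genes.

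Some of the inflammatory genes fell as well, the chemokine Cxcl10 most. Of 56 tested cytokines, chemokines and NF-κB targets, 11 fell and 1 rose, and on adjusted p alone 17 were lower and 2 higher. Over all genes tested, 1.85% fell and 1.45% rose, and 9.26% were lower and 8.03% higher on adjusted p alone. The list median was -0.33. Cxcl9, Cxcl10 and Cxcl11, chemokines that share the receptor Cxcr3, all fell. So did the adhesion molecule Icam1, the interleukin 1 receptor Il1r1, the feedback inhibitor Socs3, the matrix-binding protein Tnfaip6 and the transcription factors Cebpb, Cebpd, Bcl3 and Nfkb2.

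Cxcl10 stood at 47.8, 31.4 and 39.8 FPKM at D6 and 11.8, 7.20 and 7.99 FPKM at D16 (log2 change -2.03, SE 0.21, adjusted p = 0.00287). Icam1 stood at 30.4, 24.5 and 27.2 FPKM at D6 and 12.3, 9.73 and 9.03 FPKM at D16 (log2 change -1.32, SE 0.13, adjusted p = 0.00287). Cebpd stood at 54.2, 47.5 and 37.7 FPKM at D6 and 15.2, 11.8 and 17.8 FPKM at D16 (log2 change -1.58, SE 0.18). No D16 library reached the lowest D6 library for any of these genes. All remained above the uncultured 8.5 dpp testes at D16, where Cxcl10 stood at 2.57, 2.09 and 1.71 FPKM, Icam1 at 5.66, 4.43 and 4.33 FPKM and Cebpd at 7.47, 7.88 and 7.34 FPKM.

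Other inflammatory genes did not pass or were not called. Ccl2, which recruits monocytes, stood at 42.6, 29.5 and 20.8 FPKM at D6 and 32.3, 17.5 and 20.2 FPKM at D16, against 1.10, 1.16 and 1.298 FPKM at 8.5 dpp. The interleukin Il6 gave overlapping groups of 0.780, 1.14 and 0.495 FPKM at D6 and 0.545, 0.395 and 0.266 FPKM at D16. Nfkbia, the inhibitor of NF-κB, stood at 47.7, 41.6 and 42.3 FPKM at D6 and 50.1, 45.03 and 48.9 FPKM at D16. Mmp9, a gelatinase listed at 0.150, 0.245 and 0.227 FPKM before culture, stood at 43.7, 40.6 and 54.6 FPKM at D6 and 29.6, 20.03 and 22.5 FPKM at D16 and passed on adjusted p alone (log2 change -0.92, SE 0.17). The only member that rose, the lymphoid chemokine Ccl19, was listed at 0, 0 and 0.333 FPKM at D6 and 1.06, 0.746 and 1.04 FPKM at D16.

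The number of members that fell depended on single libraries. It was 7 without D16 replicate 2 or D16 replicate 3 and 9 or 10 without any other library. Socs3, Cxcl9 and Il1r1 kept their call in 1 of 6 fits each, with adjusted p up to 0.136 for Socs3, 0.0695 for Cxcl9 and 0.0926 for Il1r1, and Nfkb2 in 2 of 6 (up to 0.0832). None of 39 tested macrophage genes was called, which is near the 3.3% of all genes called and so says little about this list. Their median change was 0.0018. The 52 macrophage genes in the table summed to 371 to 419 FPKM at D6 and 420.2 to 443 FPKM at D16. Cd163, a marker of resident macrophages, was listed at 0 in all 6 libraries, while Cd68 stood at 6.79, 5.89 and 9.01 and 5.59, 5.87 and 5.69 FPKM. Mpeg1, a pore-forming protein of macrophages, passed on adjusted p alone with a log2 change of 0.70 (SE 0.094).

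The κB site, bound by NF-κB factors, was searched in the same way as GGG, any 3 bases and TTCC. It was found in 15 of 46 list promoters (32.6%), in 4 of the 10 members that fell and have a promoter, and in 5.58% of the promoters of all tested genes. This list was drawn up to include NF-κB targets, so its higher share cannot be read apart from that choice. The chemokine genes Cxcl10 and Cxcl11, which fell together, carry the same matched letters, and Nfkb2 is shown beside them as a subunit gene with a match close to its transcript start.
Cxcl10 promoter, chr14:15988834-15988933, plus strand: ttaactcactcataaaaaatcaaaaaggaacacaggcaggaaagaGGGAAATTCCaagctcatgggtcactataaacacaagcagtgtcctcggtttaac
Cxcl11 promoter, chr14:15973609-15973708, plus strand: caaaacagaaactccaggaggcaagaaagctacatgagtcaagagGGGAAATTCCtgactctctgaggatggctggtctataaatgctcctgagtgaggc
Nfkb2 promoter, chr1:255108309-255108373, plus strand: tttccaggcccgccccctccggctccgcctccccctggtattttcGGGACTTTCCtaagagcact
Capitals mark the first match in each promoter. The Cxcl10 promoter holds 3 matches in the 250 bases, counting both strands, and the others 1 each.

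**Figure D4:**
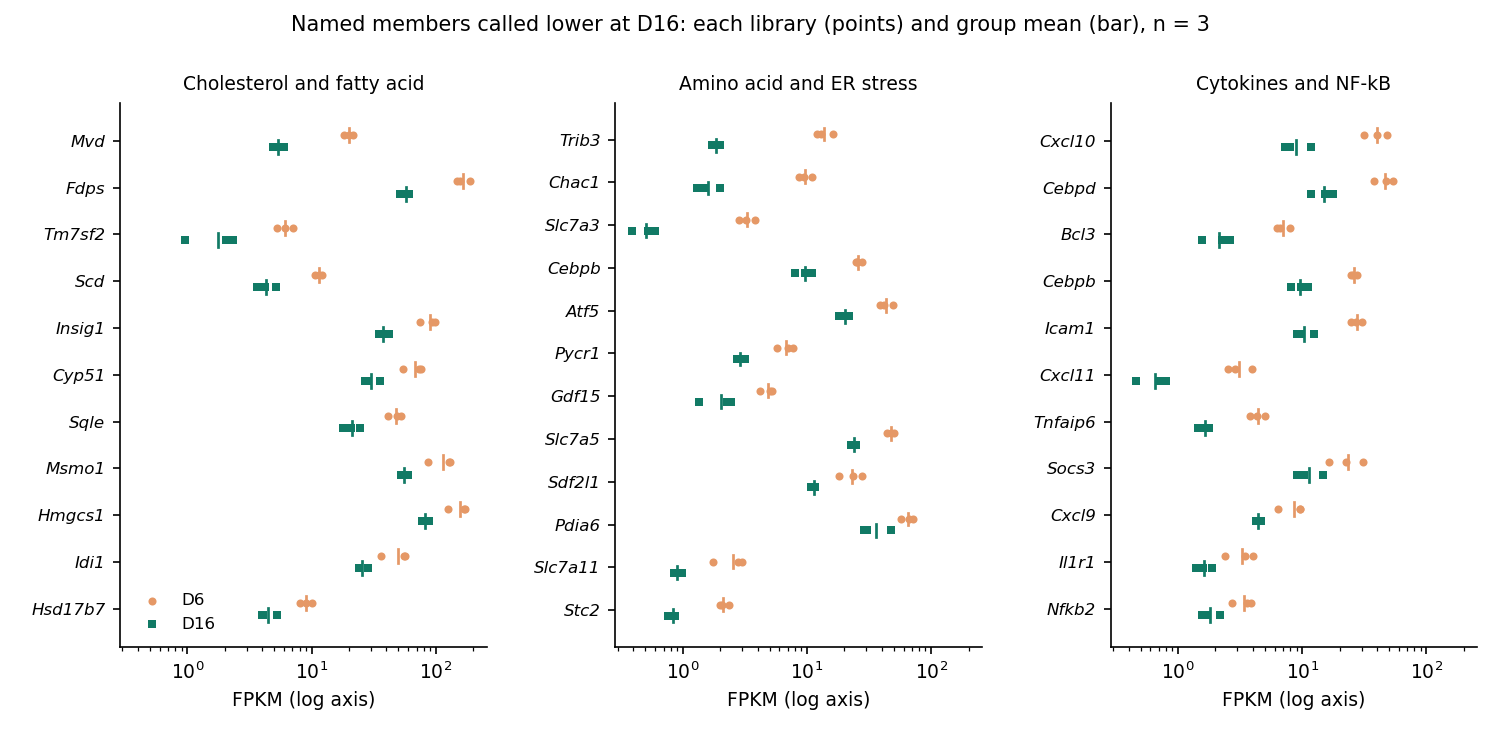
FPKM (log axis) of the named members of the cholesterol (11 of 13), amino acid (12) and cytokine (11) lists that were called lower at D16, with 1 point per library, orange circles for D6 and green squares for D16, and a bar for the group mean (n = 3). No D16 value reaches a D6 value of the same gene, and Cebpb is a member of both the amino acid and the cytokine lists.

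Cell cycle genes were lower at D16 across both lists, mostly by less than 2-fold. In the mitosis list 35 of 66 tested members passed on adjusted p alone and were lower, none was higher, and 4 were called (Ube2c, Kif18b, Cdk1 and Troap), against 9.26% of all genes lower on adjusted p alone. In the replication list 26 of 55 passed and were lower, none was higher, and Tk1 and Cdt1 were called. Ube2c, which targets mitotic cyclins for degradation, stood at 28.9, 27.4 and 28.3 FPKM at D6 and 11.8, 10.96 and 11.9 FPKM at D16 (log2 change -1.22, SE 0.076, adjusted p = 0.000794). Thymidine kinase Tk1 stood at 24.5, 23.9 and 25.6 FPKM at D6 and 11.6, 8.87 and 9.67 FPKM at D16 (log2 change -1.23, SE 0.11, adjusted p = 0.00183). Both were already far below the uncultured 8.5 dpp testes, where Ube2c stood at 84.8, 89.1 and 80.7 FPKM and Tk1 at 77.4, 71.0 and 79.3 FPKM. Pcna passed on adjusted p alone, at 110.4, 109.8 and 98.4 FPKM at D6 and 65.05, 62.4 and 55.3 FPKM at D16 (log2 change -0.79, SE 0.096). Mki67, the Ki67 antigen, stood at 25.1, 31.0 and 24.6 FPKM at D6 and 23.0, 21.6 and 20.9 FPKM at D16 and did not pass (adjusted p = 0.113), with every D16 library below every D6 library. The topoisomerase Top2a stood at 17.6, 18.5 and 15.2 FPKM at D6 and 13.5, 12.2 and 12.6 FPKM at D16 (log2 change -0.39, SE 0.097, adjusted p = 0.0356).

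Cdk1, the kinase that drives entry into mitosis, stood at 15.1, 15.04 and 15.02 FPKM at D6 and 12.1, 5.52 and 6.28 FPKM at D16 (log2 change -0.91, SE 0.24, adjusted p = 0.0463). D16 replicate 1 stood apart from the other D16 libraries, and Cdk1 kept its call in 1 of 6 fits that left out 1 library (adjusted p up to 0.143, without D16 replicate 3). The cell cycle homology region, a short element of genes of mitosis, was searched as TTTGAA. It was found in 27 of 57 mitosis promoters (47.4%) and in 10.1% of the promoters of all tested genes. Of the 3 members that fell and have a promoter, 1, Cdk1, held it. The Cdk1 promoter is shown with its first match of 2 in capitals.
Cdk1 promoter, chr20:19265176-19265271, plus strand: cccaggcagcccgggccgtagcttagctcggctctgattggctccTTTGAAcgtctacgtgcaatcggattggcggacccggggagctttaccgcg
Among immediate early genes, 3 of 45 fell (Fosl2, Myc and Gadd45g), and 11 were lower and 2 higher on adjusted p alone. Over all genes tested, these shares were 1.85%, 9.26% and 8.03%. Myc, a growth-promoting transcription factor, stood at 13.9, 12.3 and 16.2 FPKM at D6 and 7.12, 5.77 and 5.18 FPKM at D16 (log2 change -1.11, SE 0.14). Without D16 replicate 2, 1 member of the list was called.

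Few germ cell genes were called, and those that rose were genes of meiotic prophase or, in 1 case, of spermatogonia. Of 33 tested genes of early meiotic prophase, Sycp1 and Spata22 rose, 4 were higher on adjusted p alone and none was lower, with a list median of 0.22. Over all genes tested, 1.45% rose and 8.03% were higher on adjusted p alone. Sycp1, the transverse filament of the synaptonemal complex, stood at 0.563, 0.427 and 0.272 FPKM at D6 and 1.37, 1.19 and 1.53 FPKM at D16 (log2 change 0.73, SE 0.11, adjusted p = 0.00748). Spata22, needed for meiotic recombination, stood at 1.08, 0.952 and 0.307 FPKM at D6 and 2.04, 1.94 and 1.74 FPKM at D16, and kept its call in 2 of 6 fits that left out 1 library (adjusted p up to 0.102, without D16 replicate 2). Prdm9, which places recombination hot spots, passed on adjusted p alone, from 2.38 ± 0.406 to 4.03 ± 0.0633 FPKM (SD, n = 3). These levels were low, near or under a few FPKM in all 6 libraries. By the study's histology, tubules that held meiotic cells were very rare at D6, unlike at its other culture times. The part of that difference in these changes was not tested.

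Sycp3, the axial element of meiotic chromosomes, stood at 7.82, 9.56 and 3.52 FPKM at D6 and 10.6, 11.02 and 16.1 FPKM at D16 (log2 change 0.83, SE 0.32, adjusted p = 0.112). Dmc1, the meiotic recombinase, stood at 2.80, 2.09 and 1.05 FPKM at D6 and 3.62, 3.33 and 3.23 FPKM at D16 (adjusted p = 0.0908). Neither passed, although every D16 library lay above every D6 library, and in both genes D6 replicate 3 was the lowest. Ddx4, a helicase of germ cells, gave overlapping groups of 9.13, 7.13 and 4.46 and 7.01, 6.66 and 7.36 FPKM. None of 11 tested pachytene and spermatid markers passed, and 5 to 10 of the 26 in the table were listed at 0 in a D6 library and 10 or 11 in a D16 library. Stra8 was not analysed here.

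Among markers of spermatogonial stem cells and progenitors 1 of 20 rose, Pou3f1, a transcription factor known to respond to Gdnf. It stood at 3.68, 3.22 and 3.39 FPKM at D6 and 7.47, 8.99 and 8.58 FPKM at D16 (log2 change 1.07, SE 0.094, adjusted p = 0.00183). Etv5, also a known Gdnf target, passed on adjusted p alone in the other direction, from 15.2 ± 1.08 to 10.6 ± 0.367 FPKM (SD, n = 3). Zbtb16 and Gfra1, both markers of undifferentiated spermatogonia, gave overlapping groups, at 3.54, 4.60 and 3.96 and 3.19, 3.92 and 3.61 FPKM for Zbtb16 and 4.26, 4.86 and 4.69 and 4.65, 5.24 and 5.19 FPKM for Gfra1. Kit stood at 12.6, 11.8 and 12.5 FPKM at D6 and 10.4, 10.3 and 10.0 FPKM at D16 and did not pass. All 11 tested markers of differentiating spermatogonia had estimates below 0, with a median of -0.29, and 2, Dmrtb1 and Rarg, passed on adjusted p alone.

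Of 19 tested Leydig cell genes 1 rose and 1 fell, against 1.45% and 1.85% of all genes. The gene that rose was the LH receptor Lhcgr, from 1.01, 0.744 and 0.838 FPKM to 2.20, 2.22 and 1.51 FPKM (log2 change 0.67, SE 0.12), and kept its call in 4 of 6 fits that left out 1 library (adjusted p up to 0.0675). Cyp11a1, which begins steroid synthesis, was higher on adjusted p alone, at 0.863, 0.736 and 1.10 FPKM at D6 and 1.65, 2 and 1.42 FPKM at D16, while Star, which brings cholesterol to it, was lower, at 3.18, 4.81 and 3.54 FPKM and 2, 2.01 and 2.54 FPKM. Cyp17a1, needed for androgens, was too low to be tested, at 0.114, 0.176 and 0 FPKM at D6 and 0.702, 0.254 and 0.460 FPKM at D16, against 53.04, 99.3 and 78.5 FPKM in the 8.5 dpp testes. Insl3, a Leydig cell hormone, gave overlapping groups of 0.950, 0.819 and 2.40 and 0.398, 1.22 and 0.395 FPKM.

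In the interstitium, Dlk1, a non-canonical Notch ligand of stem Leydig cells and an imprinted gene, had 1 of the largest falls. It stood at 111, 98.9 and 156 FPKM at D6 and 34.5, 28.4 and 21.5 FPKM at D16 (log2 change -2.07, SE 0.22, adjusted p = 0.00301). The 8.5 dpp testes held 109, 130 and 116 FPKM, close to D6. None of the other 31 tested members of the stem Leydig list was called, and over all 32, 7 were lower and 1 higher on adjusted p alone. The smooth muscle genes Cnn1, Des and Actg2 fell, 3 of 27 tested, against 1.85% of all genes called lower. Des, the intermediate filament desmin, stood at 37.1, 28.5 and 46.7 FPKM at D6 and 16.3, 13.7 and 13.6 FPKM at D16 (log2 change -1.29, SE 0.18). Cnn1, which encodes calponin, went from 17.3, 13.1 and 21.9 to 7.84, 5.03 and 5.42 FPKM (log2 change -1.37, SE 0.21). D6 replicate 3 was the highest library for both genes. Actg2 kept its call in 2 of 6 fits that left out 1 library (adjusted p up to 0.0896). Acta2, smooth muscle actin, varied more within groups, at 61.5, 88.6 and 158 FPKM at D6 and 34.7, 66.5 and 14.7 FPKM at D16, and did not pass.

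Endothelial genes moved both ways, with 2 of 34 tested called higher and 2 lower, against 1.45% and 1.85% of all genes. Gja5, the connexin 40 of arteries, rose from 1.79, 1.55 and 1.31 FPKM to 8.16, 4.85 and 5.92 FPKM (log2 change 1.497, SE 0.17, adjusted p = 0.00387), and Selp, the adhesion receptor P-selectin, rose with it. Gpihbp1 of capillaries and Lyve1 of lymphatic vessels fell. On adjusted p alone 10 of 34 tested members were higher and 4 lower. Without D16 replicate 2 neither of the 2 that fell was called. Selp kept its call in 3 of 6 fits that left out 1 library, Gpihbp1 in 2 of 6 and Lyve1 in 4 of 6, with adjusted p up to 0.0516, 0.0808 and 0.0824. Pecam1, found on all endothelium, stood at 26.5, 25.2 and 25.4 FPKM at D6 and 35.8, 28.0 and 31.1 FPKM at D16 and did not pass.

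Some genes of interferon response and complement rose. The interferon-induced GTPases Mx1 and Mx2 rose, 2 of 39 interferon-stimulated genes tested, against 1.45% of all genes called higher. On adjusted p alone 5 of the 39 were higher and 2 lower, with a list median of 0.090. The 42 genes of the list in the table summed to 1604 to 2298 FPKM at D6 and 1487 to 1657 FPKM at D16. Mx2 stood at 1.88, 2.46 and 1.84 FPKM at D6 and 4.94, 5.11 and 5.45 FPKM at D16 (log2 change 1.02, SE 0.10, adjusted p = 0.00286). Of 17 tested complement genes 3 rose, Cfd and C3ar1 among them. C3ar1, the receptor for the fragment C3a, went from 1.17, 1.40 and 1.63 to 3.06, 3.34 and 3.15 FPKM (log2 change 0.81, SE 0.094), and Cfd was listed at 0.466, 0.675 and 0 FPKM at D6 and 2.64, 3.17 and 3.25 FPKM at D16. Without 1 library, 2 or 3 of this list were called. In antigen presentation, RT1-Bb and Cd74 of the class II pathway passed on adjusted p alone, from 8.60 ± 2.27 to 17.0 ± 2.96 FPKM for Cd74 (SD, n = 3). Psmb8 was called lower at values of 0.656, 0.558 and 1.25 FPKM and 0, 0 and 0.345 FPKM, and kept its call in 1 of 6 fits. Nkg7, of cytotoxic lymphocytes, was 1 of 9 tested lymphoid genes and fell, from 2.52, 1.51 and 4.12 to 0.346, 0.697 and 0.512 FPKM, with its call kept in 2 of 6 fits (adjusted p up to 0.0689).

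Matrix genes and their regulators mostly fell where they were called. Of 30 tested proteases and inhibitors 6 fell and none rose, and of 46 matrix genes 4 fell, against 1.85% of all genes called lower. Timp1, an inhibitor of metalloproteinases, stood at 45.5, 61.7 and 45.1 FPKM at D6 and 22.9, 19.11 and 17.1 FPKM at D16 (log2 change -1.32, SE 0.16, adjusted p = 0.00458). The aggrecanases Adamts4 and Adamts15 fell with their substrates versican (Vcan) and aggrecan (Acan), and Acan went from 0.891, 1.496 and 0.988 FPKM to 0.173, 0.147 and 0.175 FPKM. Thrombospondin 1 (Thbs1), an activator of TGF-β, went from 10.8, 11.7 and 9.84 to 4.16, 3.78 and 4.10 FPKM (log2 change -1.23, SE 0.089). On adjusted p alone the small proteoglycans Bgn and Lum, with Postn, were higher, with log2 changes of 0.45, 0.65 and 0.69. Without 1 library, from 2 to 6 matrix genes and from 4 to 7 proteases and inhibitors were called lower, with the fewest of both without D16 replicate 2 and without D16 replicate 3.

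Growth regulators of the IGF axis and imprinted genes fell in 4 of 27 cases, Dlk1, Meg3, Igfbp5 and Nnat, with a list median of -0.41. Over all genes tested, 1.85% fell. Meg3, a long non-coding RNA from the same imprinted locus as Dlk1, stood at 14.6, 29.1 and 32.8 FPKM at D6 and 8.57, 8.78 and 6.55 FPKM at D16 (log2 change -1.497, SE 0.28), and kept its call in 3 of 6 fits that left out 1 library (adjusted p up to 0.068). Igfbp5, which binds insulin-like growth factors, went from 26.9, 25.01 and 34.7 to 12.6, 10.5 and 6.93 FPKM (log2 change -1.46, SE 0.21). Igf2 went the other way and passed on adjusted p alone, at 46.0, 40.2 and 46.7 FPKM at D6 and 104, 78.9 and 86 FPKM at D16 (log2 change 0.99, SE 0.12), while H19, the RNA beside it, stood at 309, 324 and 339.6 and 489.7, 365 and 348 FPKM and did not pass. Without D16 replicate 3, 2 members of the list were called lower.

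Among the remaining lists, the antioxidant gene Srxn1 fell, from 15.4, 14.99 and 14.4 FPKM to 5.87, 4.77 and 4.63 FPKM (log2 change -1.39, SE 0.099, adjusted p = 0.00119), against 0.597, 0.595 and 0.607 FPKM before culture. Srxn1 encodes sulfiredoxin and is a target of NRF2, as are Nqo1 and Hmox1, which passed on adjusted p alone with log2 changes of -0.83 and -0.73. Srxn1 and the cystine transporter Slc7a11 were the 2 called of 39 tested members of this list, against 1.85% of all genes called lower. Of 41 genes of hypoxia and glycolysis, 2 fell, the aldolase Aldoc among them, and 10 were lower on adjusted p alone, Pgk1, Ldha and Eno1 among them. Over all genes tested, 9.26% were lower on adjusted p alone. No member of the hypoxia list was called without D16 replicate 2, D6 replicate 1 or D6 replicate 3. Among retinoid genes the carrier Rbp4 fell, from 8.98, 10.7 and 7.64 to 3.93, 2.32 and 4.74 FPKM (log2 change -1.14, SE 0.21), as did Cyp26a1, which degrades retinoic acid, at 2.42, 2.79 and 2.66 and 1.88, 1.02 and 1.28 FPKM. Without D6 replicate 1 no retinoid gene was called, and 1 was without D6 replicate 2 or 3 or D16 replicate 2 or 3. Of 35 genes of apoptosis and p53, Gdf15 fell and Perp rose, from 1.06, 1.13 and 0.918 to 2.69, 1.88 and 2.78 FPKM, and 2 were higher and 7 lower on adjusted p alone. Gdf15 was also the 1 called of 32 tested TGF-β, activin and BMP genes, and Aqp8 the 1 called of 16 genes of water channels and iron handling. Among 16 clock genes 3 were higher and 2 lower on adjusted p alone, with Nr1d1, a repressor in the clock, at a log2 change of 0.67.

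The largest rises among named genes outside these lists include Emb, 6030498E09Rikl, Them5 and the phospholipases Pla2g2a and Pla2g2d. Emb encodes embigin, a chaperone of lactate transporters, and stood at 11.4, 11.4 and 9.38 FPKM at D6 and 35.8, 35.9 and 36.3 FPKM at D16 (log2 change 1.66, SE 0.095, adjusted p = 0.000562). 6030498E09Rikl went from 2.45, 2.71 and 2.34 to 16.3, 14.5 and 17.4 FPKM (log2 change 2.28, SE 0.096). Pla2g2d stood at 0.867, 0.899 and 0.620 FPKM at D6 and 4.56, 4.68 and 4.33 FPKM at D16 (log2 change 1.62, SE 0.091). For all 3 the groups were clearly apart. Pla2g2a, listed at 0 in the 8.5 dpp testes, stood at 5.08, 1.13 and 1.04 FPKM at D6 and 7.21, 6.48 and 11.3 FPKM at D16, and its call was kept in 1 of 6 fits that left out 1 library (adjusted p up to 0.137), and that of the thioesterase Them5 in 2 of 6. Among the falls, Sectm1b went from 9.44, 6.55 and 11.6 to 1.87, 1.73 and 1.39 FPKM, the neuronal trafficking gene Nsg2 from 9.06, 7.34 and 7.82 to 2.21, 1.97 and 1.42 FPKM and Rprml from 34.2, 26.6 and 45 to 13.7, 10.9 and 8.65 FPKM, with log2 changes of -1.91, -1.67 and -1.58.

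Several of the largest changes belong to genes that moved between 0, or a low level, and a much higher level elsewhere in the series too. Rpl24, a ribosomal protein gene that every cell uses, was listed at 0 in all D6 libraries and at 85.0, 76.9 and 89.3 FPKM at D16, and again at 0 in all D22 and D28 libraries. H2az2 was listed at 0 at D6, 10.3, 11.2 and 11.2 FPKM at D16 and 0, 9.61 and 10.9 FPKM at D22. Tug1, a long non-coding RNA, stood at 3.02, 3.37 and 2.41 FPKM at D6, 24.1, 22.6 and 22.1 FPKM at D16 and 19.96, 22.0 and 3.35 FPKM at D22, and at 3.48, 3.56 and 31.8 FPKM in the 8.5 dpp testes. For H2az2 and Tug1, the libraries of 1 group thus held both levels. Kcnk1, a potassium channel, had the largest fall, from 10.99, 20.8 and 14.5 FPKM to 1.04, 0.976 and 0.787 FPKM, and was back at 24.3, 14.7 and 13.8 FPKM at D22. An exact 0 in such a table can be a failed estimate, so no fold is given here for these genes. Of the 368 called genes, 31 were listed at 0 in at least 1 of the 6 libraries, 6 in all D6 libraries and 1, the chemokine Xcl1, in all D16 libraries.

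The change in culture was set beside that in the testis between the matching ages, 14.5 and 24.5 dpp, with 2 and 3 libraries. The comparison asks whether tissue in culture followed the changes of the same days in the animal. These 4 groups share no library, and the remaining 14.5 dpp library, which its label calls an outlier, was listed at 0 throughout and was not used. In the testis, 2983 of 11944 tested genes (25%) were higher and 4508 (37.7%) lower at 24.5 dpp on adjusted p alone. The change in culture differed from that in the testis at 3021 genes (25.3%), with an adjusted p of at most 0.05 and a difference of at least 1 on the log2 scale. Of these, 1602 (13.4%) were in favour of culture and 1419 (11.9%) in favour of the testis. A difference in favour of culture is a higher change there, which can be a smaller fall, and not a higher level.

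Of the 162 genes that rose in culture, 58 (35.8%) were also higher at 24.5 dpp on adjusted p alone, 37 (22.8%) were lower and 67 did not pass. Of the 206 that fell, 116 (56.3%) were also lower, 15 (7.28%) were higher and 75 did not pass. The median change in the testis was 0.054 for the genes that rose and -0.52 for those that fell, and -0.17 over all genes. The changes differed for 74 (45.7%) of those that rose and 46 (22.3%) of those that fell.

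**Figure D5:**
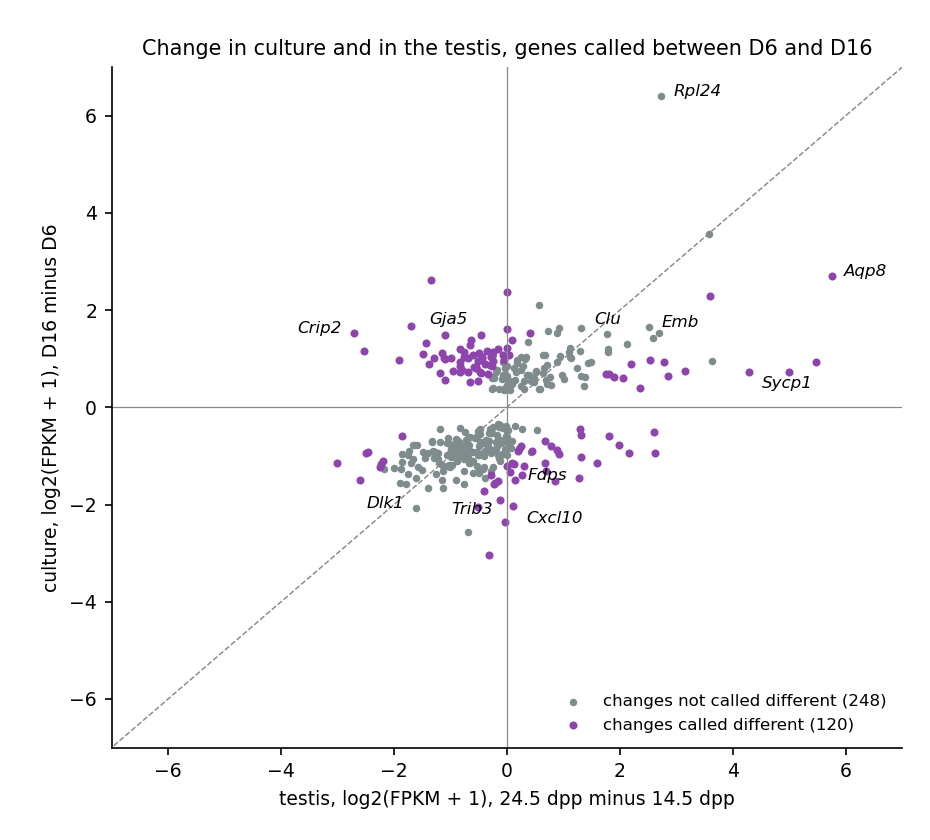
Log2 change of each of the 368 called genes in culture (D16 minus D6, vertical axis) against that in the testis (24.5 dpp minus 14.5 dpp, horizontal axis), with the dashed line where both are equal. Purple points are the 120 genes whose changes were called different and grey points the other 248, and the testis changes of the genes that fell lie mostly left of 0.

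Sertoli genes differed in how the 2 changes compared. Clu changed by 1.32 in the testis and 1.64 in culture, a difference of 0.32 (SE 0.42) that did not pass. Amh changed by -1.12 and -1.31, also with no difference called (adjusted p = 0.794). Aqp8 rose in both, by 5.75 in the testis, where it reached 285, 308 and 321 FPKM, and the difference of -3.05 (SE 0.87) was called (adjusted p = 0.015). Cldn11 had a difference of 1.87 (SE 0.31), from 454 and 406 FPKM to 172, 202 and 298 FPKM in the testis. Over the 45 mature Sertoli genes the median change was 0.29 in culture and -0.59 in the testis, and 18 differed in favour of culture and 3 in favour of the testis.

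Of the 13 sterol list members that fell in culture, 5 were also lower at 24.5 dpp on adjusted p alone and 8 did not pass, and 6 were called as falling more in culture. Of the 12 members of the amino acid and ER stress list that fell, 4 were also lower, 2 (Slc7a5 and Sdf2l1) were higher and 6 did not pass, and 6 were called as falling more in culture. Of the 11 cytokine list members that fell, 5 were also lower, 1 was higher and 5 did not pass, and 3 were called as falling more in culture. None of these members that fell was called as falling less in culture than in the testis. They were picked by their fall in culture, which also enters the difference, so these counts lean toward larger falls there. Over the whole lists, 9 of 49, 8 of 46 and 7 of 58 members were called with a lower change in culture. A higher change was called for 6, 2 and 2, against 11.9% lower and 13.4% higher over all genes. In this fit their medians were -0.30, -0.45 and -0.30 in culture and -0.39, -0.078 and -0.22 in the testis. Trib3 changed by -0.034 in the testis, where it was listed at 0.0486 and 0 FPKM at 14.5 dpp and 0 at 24.5 dpp, a difference of -2.32 (SE 0.16, adjusted p = 4.50e-06). Fdps changed by 0.14 in the testis, a difference of -1.63 (SE 0.22, adjusted p = 0.000293), and Insig1 by 0.30, a difference of -1.51 (SE 0.20). Cxcl10 changed by 0.12, a difference of -2.15 (SE 0.40, adjusted p = 0.00167). Of the genes that fell, Dlk1, Des, Cnn1, Igfbp5, Tk1 and Ube2c also had lower levels at 24.5 dpp, with testis changes from -2.25 for Tk1 to -1.51 for Des. A difference was called for Tk1 alone among these 6, at 1.02 (SE 0.30).

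Meiotic genes were higher at 24.5 dpp by far more than at D16. Sycp1 stood at 0.528 and 1.92 FPKM at 14.5 dpp and 45.2, 33.7 and 43.2 FPKM at 24.5 dpp, against at most 1.53 FPKM at D16, a difference of -3.56 (SE 0.32, adjusted p = 2.10e-05). Spata22 had a difference of -4.27 (SE 0.66) and Sycp3, which reached 475, 460.2 and 461 FPKM at 24.5 dpp, of -3.96 (SE 0.79). Of 36 early meiotic genes in this fit, 25 differed in favour of the testis and none in favour of culture. The 2 libraries of 14.5 dpp were themselves apart for these genes, as for Sycp3 at 6.17 and 38.4 FPKM. Among endothelial genes 17 of 35 differed in favour of culture and 1 in favour of the testis, Gja5 with 1.96 (SE 0.27), and among stem Leydig genes 18 of 32 and 1. The 18 general germ cell genes summed to 440.2 to 647 FPKM at 14.5 dpp and 2087 to 2747 FPKM at 24.5 dpp, against 301 to 358 FPKM at D6 and 282 to 314 FPKM at D16, and their part in the other differences was not tested.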

How the data were processed

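RNA was extracted from testes and cultured explants, polyA RNA was prepared with a stranded kit and sequenced as single reads by the authors. Per the study's methods, reads were mapped with STAR 2.5.2a to the rat genome rn6 and quantified against RefSeq transcripts with StringTie and Ballgown. The deposited values are FPKM per gene (the methods write RPKM), with 1 column per library, and no read counts were used here. Total depth is therefore unknown, and no counting interval is given. FPKM values are shares of a library, so a few abundant genes can shift the rest.

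From these values, limma 3.58.1 (under R 4.3.3, functions lmFit and eBayes) tested D16 (3 libraries) against D6 (3 libraries) on log2(FPKM + 1). Genes entered if the median of either group reached 0.5 FPKM. A fold change on this scale understates the change of low genes. P-values were adjusted by the Benjamini-Hochberg method over all 11145 genes tested. Replicate numbers were not used as a block in this fit. For the comparison with the testis, 4 groups of 11 libraries were fitted together and the difference of both changes was tested over 11944 genes. The 2-group test was checked on simulated data, with 200 genes shifted and 10 draws per shift. A shift of 1 log2 unit was called for 117.3 of them on average, and a shift of 2 for 195.5. Without a shift no gene was called. True changes near 2-fold can therefore be missed.

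The 34 gene lists, the groups compared and the promoter motifs were chosen with earlier results of these data known. Lists are described by counts and medians only, and some of their members are not reported here by name. Genes were named by rule, namely the 12 largest rises and falls, up to 5 called members of each list, the 3 most abundant members of lists with under 2 called, the 8 largest differences from the testis in each direction and a fixed set of cell markers. Other genes, among them those named on adjusted p alone, were added after their values were seen. Of 17322 genes in the table, 17172 matched a RefSeq symbol. Promoters came from RefSeq on GRCr8, with 9089 of the tested genes matched. Figures were drawn with matplotlib 3.10.9. Alternatives covered the pseudocount, filters, scaling, the call rule, the replicate block, the groups in the fit and leaving out each library.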

Additional observations from a re-analysis of the deposited data

Results flagged for a closer look

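The change from D6 to D16 differed from the change between 14.5 and 24.5 dpp at 3021 of 11944 genes in limma's test of the difference (adjusted p of at most 0.05 and a difference of at least 1 on the log2 scale). The genes listed next had the largest differences of each sign and are given because the effect of the same span of days differed between culture and testis.

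On the side of culture, the differences in log2 change were 4.55 for Mybphl, 4.25 for Smim11, 4.24 for Crip2, 3.95 for Tug1, 3.67 for Taldo1, 3.55 for Rpa1, 3.54 for Emilin3 and 3.52 for Rgs5. These are differences on the log2(FPKM + 1) scale and no folds. Of these, Smim11, Taldo1, Rpa1 and Rgs5 are listed at 0 in some of the libraries. Tug1 had both a low and a high level among the libraries of 14.5 dpp, and the part of these listings and levels in the differences was not tested.

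On the side of the testis, the differences were -9.74 for Fabp9, -8.17 for Ropn1l, -8.003 for Cox8c, -7.71 for Ldhc, -7.39 for Cmtm2a, -7.38 for Crisp2, -7.37 for Rpl6 and -7.22 for Cetn1. Fabp9, Ropn1l, Cox8c, Ldhc, Crisp2 and Cetn1 are genes of spermatocytes and spermatids, and Fabp9 and Ropn1l were listed at 0 in all D6 and D16 libraries. Rpl6 is a ribosomal protein gene that every cell uses, and its value rests on listings of 0, which can be failed estimates.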

How the results depend on the processing

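Without the 2-fold rule, 1927 genes passed between D6 and D16 (895 higher, 1032 lower), with a log2 change of at least 1 in its place 144 (62 and 82), and among genes with a mean of at least 2 FPKM 211 were called (85 and 126). Leaving out each library in turn gave 243 to 398 called genes, 119 to 161 higher and 124 to 237 lower. The fewest were called without D16 replicate 2 (243 in all, 124 lower), and without D16 replicate 3 there were 253 (133 lower). The other settings, which were a pseudocount of 0.1, no filter, genes listed at 0 left out, quantile normalization, equal medians, a variance trend and larger fits, gave 343 to 375 called genes. The replicate numbers did not pair the samples, with correlations of deviations of 0.021, -0.088 and 0.026 for equal numbers. With the replicate block 302 genes were called (134 higher, 168 lower).

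For the difference from the testis, adjusted p alone passed 6001 genes (3458 with a higher change in culture, 2543 with a lower change). Leaving out each library gave 2726 to 3411 (1393 to 1857 and 1295 to 1578), and the replicate block gave 3122. None of 103 called named genes changed sign under any of these settings, and 12 of 92 named genes that were not called did. The medians of 10 lists changed sign under at least 1 setting, all with medians between -0.16 and 0.18 as reported, among them the erythroid list, which rests on 1 tested gene and had no value among genes with a mean of at least 2 FPKM. Of the 103 called genes, 62 kept their call in all 6 fits that left out 1 library and 41 lost it in at least 1. Total depth is unknown, so a gene near 0.5 FPKM may differ by an amount these libraries could not show, and an exact 0 may be a failed estimate.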

Other observations

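Some genes in no list above had levels that differed between the days and that were named for their size. Uqcc6, a mitochondrial assembly gene, stood at 11.8, 9.14 and 3.47 FPKM at D6 and 0, 1.77 and 0 FPKM at D16, and kept its call in 2 of 6 limma fits that left out 1 library (adjusted p up to 0.0736). Xcl1, a lymphoid chemokine, stood at 2.01, 1.51 and 3.23 FPKM at D6 and was listed at 0 in all D16 libraries.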
